A study of Mus musculus with 12 samples.

Results

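The developmental pluripotency-associated (Dppa) genes *Dppa2*, *Dppa3*, *Dppa4* and *Dppa5a* were followed in gastruloids, which are cultured aggregates of mouse embryonic stem cells that break symmetry and elongate. The 4 genes were matched by symbol and taken by Ensembl identifier from the 55141 genes of the deposited count table. Gastruloids of the 129/SVEV line were started from 300 cells, received the Wnt agonist CHIR99021 at 3 µM for 24 h from 48 h after seeding, and were embedded in a dextran-based hydrogel. Embedding took place at 72 h or at 96 h, at a gel concentration of 1.0 or 1.5 mM, the higher concentration giving the stiffer gel, and gastruloids of all 4 groups were collected at 120 h. Each group held 3 biological replicates, each a pool of about 30 gastruloids, all from the same cell line and all treated with CHIR99021, so that embedding time also set the number of hours spent in the gel. Total counts per library ran from 23011791 to 25149780 after embedding at 72 h and from 25398824 to 27609422 after embedding at 96 h. The sources used here name no sequencing batch.

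*Dppa2* and *Dppa4* are neighbouring paralogues whose proteins carry a SAP DNA-binding domain, bind one another and hold developmental promoters in a primed, bivalent state in pluripotent cells. *Dppa3* (Stella, PGC7) encodes a small protein of oocytes, early embryos and primordial germ cells that protects DNA from methylation, in part by acting on Uhrf1. *Dppa5a* (Esg1) encodes a KH-domain RNA-binding protein of embryonic stem cells and germ cells. Transcripts of these genes are abundant in naive pluripotent cells and fall as cells leave pluripotency.

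*Dppa4* (ENSMUSG00000058550, chr16:48283735-48294237, plus strand, mm10) lies 9670 bases upstream of *Dppa2* (ENSMUSG00000072419, chr16:48303908-48319723, plus strand). *Dppa3* (ENSMUSG00000046323) is at chr6:122626410-122630272 on the plus strand and *Dppa5a* (ENSMUSG00000060461) at chr9:78367052-78368177 on the minus strand. All 4 are protein-coding, with principal transcripts of 2447 bases and 8 exons (*Dppa2*), 1479 bases and 7 exons (*Dppa4*), 833 bases and 4 exons (*Dppa3*) and 619 bases and 3 exons (*Dppa5a*) in the GENCODE annotation of the same genome build. The coding sequences of *Dppa2* and *Dppa4* shared no stretch of 20 bases (0 shared), so reads of the 2 paralogues were separable.

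Copies of these genes elsewhere in the genome could take up reads, and the start of the *Dppa5a* coding sequence is shown beside its 2 annotated pseudogene copies because the largest counts among the members belong to this gene. The 75 bases, as long as a sequencing read, come from exon 1 of each transcript and are written 5′ to 3′ in the sense of *Dppa5a*, from GENCODE transcripts on GRCm38 (mm10). Capitals mark the positions at which the copies depart from *Dppa5a*, at chr9:78368025-78368099 (minus strand), chr9:78245550-78245624 (plus strand) and chr9:78271998-78272072 (plus strand) in the order listed.
Dppa5a: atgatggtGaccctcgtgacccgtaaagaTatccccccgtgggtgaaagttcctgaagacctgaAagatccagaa
Dppa5b: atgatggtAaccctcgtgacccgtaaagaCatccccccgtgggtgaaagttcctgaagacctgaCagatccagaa
Dppa5c: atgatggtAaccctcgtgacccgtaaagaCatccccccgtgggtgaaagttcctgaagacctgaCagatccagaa
Each copy departed from *Dppa5a* at 3 of these bases, and over the 297 aligned bases each was 97.0% identical to the *Dppa5a* coding sequence. *Dppa5b* and *Dppa5c* had 0 counts in all 12 libraries, as did *Dppa3-ps* and the unrelated gene *Dppa1*. Of the 75-base windows of each principal transcript, 80.6% were found in no other gene's transcript for *Dppa5a*, 95.9% for *Dppa3*, 76.3% for *Dppa4* and 74.3% for *Dppa2*. The genes that shared windows with *Dppa2* (*Gm9788*, *Gm8023*, *Gm9298*, *Gm12874*) held at most 3 counts in any library. *Gm14058*, which shared 280 windows with *Dppa4*, held at most 12. *Pigp*, with counts of 924 to 1288, shared 22 windows with *Dppa5a*. How reads with several matches were counted is not given in the sources used here. Low counts at the copies therefore do not show how many reads the members may have lost.

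Gastruloids embedded at 72 h contained less *Dppa5a*, *Dppa4*, *Dppa2* and *Dppa3* RNA at 120 h than gastruloids embedded at 96 h, in both gels. The fitted decrease was 6.56-fold and 5.57-fold for *Dppa5a* in gels of 1.0 and 1.5 mM, and 3.41-fold and 3.06-fold for *Dppa4*. *Dppa2* decreased by a fitted 9.92-fold and 6.32-fold from a low level. Concentrations of 1.5 mM and 1.0 mM were compared at each embedding time, and no member was differentially expressed (DE) between gels. A gene was counted as DE with a Benjamini-Hochberg adjusted p below 0.05 in the quasi-likelihood test of edgeR, over all genes tested, and an absolute log2 fold change above 1. In bulk RNA, fewer cells expressing a gene and less of its RNA per cell cannot be told apart.

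**Figure D1:**
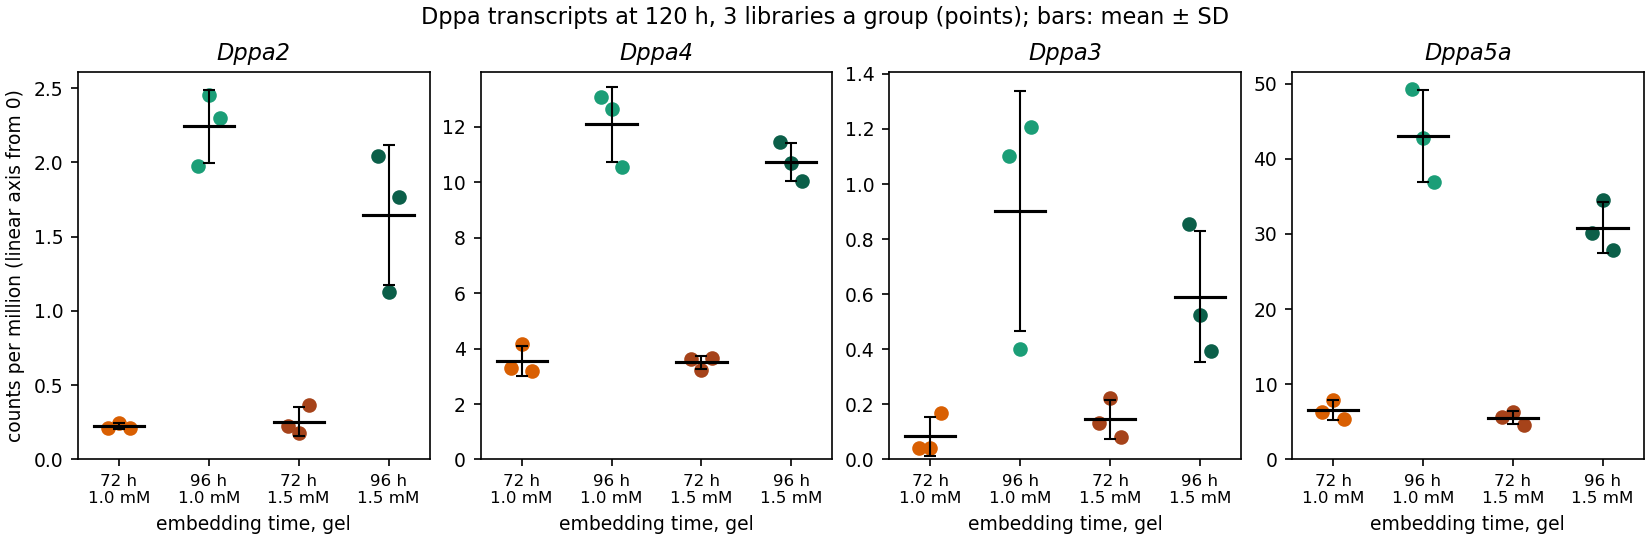
Levels in CPM (counts scaled to a fixed total per library, linear axis from 0) of the 4 Dppa genes in each library, by embedding time and gel concentration. Points are libraries, horizontal bars are means and error bars are SD (n = 3), and in all 4 panels every library embedded at 72 h lies below every library embedded at 96 h.

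*Dppa5a*, the most abundant member, was measured at 6.36, 7.93 and 5.39 CPM in the 3 libraries from 1.0 mM gels after embedding at 72 h and at 49.3, 42.8 and 37.0 CPM in those embedded at 96 h. The libraries of the stiffer 1.5 mM gels held 5.71, 6.34 and 4.61 CPM for 72 h and 30.1, 34.5 and 27.9 CPM for 96 h. The groups were far apart in both gels, with raw counts of 114 to 194 in the 6 libraries embedded at 72 h and of 710 to 1298 in the other 6. The log2 fold change of 72 h over 96 h was -2.71 ± 0.16 (SE, adjusted p = 2.00e-05) in 1.0 mM gels. In 1.5 mM gels it was -2.48 ± 0.139 (SE, adjusted p = 1.03e-04). Among the genes that were DE and lower after embedding at 72 h, *Dppa5a* ranked 2 of 267 in 1.0 mM gels and 1 of 246 in 1.5 mM gels by p value, and 43 and 38 by size of the change.

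*Dppa4*, the DNA-binding partner of *Dppa2*, was at 3.31, 4.17 and 3.17 CPM after embedding at 72 h in 1.0 mM gels, against 13.1, 12.6 and 10.6 CPM after embedding at 96 h. In 1.5 mM gels its levels were 3.61, 3.24 and 3.68 CPM for 72 h and 11.4, 10.7 and 10.1 CPM for 96 h. No library embedded at 72 h reached the lowest one embedded at 96 h. The log2 fold change was -1.77 ± 0.169 (SE, adjusted p = 1.61e-04) in 1.0 mM gels and -1.61 ± 0.138 (SE, adjusted p = 6.87e-04) in 1.5 mM gels.

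*Dppa2* was detected with 5, 6 and 5 counts in 1.0 mM gels after embedding at 72 h and with 52, 61 and 63 counts after embedding at 96 h. The libraries of 1.5 mM gels held 5, 4 and 9 counts for 72 h and 55, 28 and 45 counts for 96 h. The ranges did not overlap, and the highest library embedded at 72 h (9 counts) held fewer reads than the lowest embedded at 96 h (28 counts). The log2 fold change was -3.31 ± 0.318 (SE, adjusted p = 1.61e-04) in 1.0 mM gels and -2.66 ± 0.389 (SE, adjusted p = 0.00384) in 1.5 mM gels. *Dppa2* passed the filter on low counts only through the libraries embedded at 96 h. The filter thus favoured a difference in this direction, and the call of *Dppa2* is no independent evidence.

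*Dppa3*, the germ cell and oocyte gene, had the fewest reads. Counts in 1.0 mM gels were 1, 1 and 4 after embedding at 72 h and 29, 10 and 33 after embedding at 96 h. In 1.5 mM gels they were 3, 5 and 2 for 72 h and 23, 13 and 10 for 96 h. The highest count at 72 h (5) was below the lowest at 96 h (10), but the libraries embedded at 96 h differed among themselves, with 10 counts beside 29 and 33 in the same group. *Dppa3* was not tested in either pair of groups, because too few libraries held enough reads. In a fit with 4 group means over all 12 libraries its log2 fold change was -3.38 ± 0.627 (SE, adjusted p = 0.00325) in 1.0 mM gels and -2.01 ± 0.602 (SE, adjusted p = 0.0350) in 1.5 mM gels. It entered that fit, and each fit that tested it with 1 library left out, through the libraries embedded at 96 h alone, so that its calls are no independent evidence either. Fitted on the 1.5 mM gels without replicate 3 of the group embedded at 72 h, its adjusted p was 0.106.

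Of the 4 members, *Dppa5a* and *Dppa4* were tested in both gels independently of which group was high and both were DE and lower, beside 1.69% of all 15763 genes tested in 1.0 mM gels and 1.57% of 15683 in 1.5 mM gels. With no filter on low counts, 4 of 4 members were DE and lower in each gel, beside 1.22% of 29070 genes in 1.0 mM gels and 1.19% of 28917 in 1.5 mM gels. *Dppa2* and *Dppa3* held at most 9 counts in any library embedded at 72 h, and their calls here add no independent evidence. Fits without this filter also called 56 genes between gels at 72 h and 65 at 96 h, where the main fits called 0. Non-overlap by itself was more common, at 12.8% of genes tested in 1.0 mM gels and 19.7% in 1.5 mM gels for lower values after embedding at 72 h, and at 5.21% of genes for all 6 libraries against all 6. All 4 members had this pattern over the 12 libraries. An exact two-sided permutation test of log2 CPM, with embedding times exchanged within each gel, gave p = 0.005 for each member, the smallest p that its 400 assignments can give. Once the libraries do not overlap, that p is fixed, so the test adds nothing to the non-overlap.

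Embedding time accounted for most of the spread of the members over the 12 libraries. It took 96.1% of the sum of squares of log2 CPM for *Dppa5a*, 97.5% for *Dppa4*, 95.1% for *Dppa2* and 78.0% for *Dppa3*. Differences between replicates of a group took 1.89%, 2.06%, 3.39% and 17.5% in the same order, and gel concentration 1.79% or less in each. *Dppa3*, with the fewest counts, thus had the largest share within groups.

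The members did not all change to the same extent. Over 6 pairs of members, the change in log2 CPM was 0.91 smaller in size for *Dppa4* than for *Dppa5a* (exact two-sided permutation p = 0.005, Benjamini-Hochberg adjusted p = 0.03 over the 6 pairs). The difference of *Dppa2* minus *Dppa4* was -0.98 (exact permutation p = 0.01, adjusted p = 0.03), but it took the opposite sign, 0.58, on the scale of log2(FPKM + 1), where the level of *Dppa2* is below the added 1. The other 4 pairs had permutation p values from 0.175 to 0.805, a range that does not show equal changes. The ratio of both transcripts differed between embedding times in the same direction. Per length, in FPKM (counted fragments per kilobase of transcript, scaled to the library's total), *Dppa5a* exceeded *Dppa4* by 4.86 ± 0.549 times (SD, n = 3) in 1.0 mM gels after embedding at 72 h and by 9.53 ± 0.718 times after embedding at 96 h. In 1.5 mM gels these FPKM ratios were 4.31 ± 0.891 and 7.84 ± 0.68. The 6 ratios at 72 h ran up to 5.44 and the 6 at 96 h began at 7.21, without overlap.

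The order of the FPKM levels was the same in all groups for the 2 most abundant members. *Dppa5a* came first, at 8.10 ± 1.45 FPKM (SD, n = 3) after embedding at 72 h and 53.7 ± 8.13 after embedding at 96 h for 1.0 mM gels, and at 6.67 ± 1.02 and 36.9 ± 2.29 in 1.5 mM gels. *Dppa4* was second in every group, at 1.67 ± 0.291 and 5.64 ± 0.733 FPKM in 1.0 mM gels and at 1.56 ± 0.124 and 4.72 ± 0.349 in 1.5 mM gels. *Dppa2* and *Dppa3* were below 1.1 FPKM in every library and overlapped in every group, so their order was not resolved. Set against all genes with an FPKM above 0, *Dppa5a* was above 94.9% of genes in 1.0 mM gels after embedding at 96 h and above 71.0% after embedding at 72 h. *Dppa4* was above 66.3% and 53.5% of genes in the same groups.

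Gel concentration was compared at each embedding time to ask whether the stiffer gel changed the members. At 72 h only *Dppa4* and *Dppa5a* had enough reads to be tested, with log2 fold changes of 1.5 mM over 1.0 mM of -0.01 (95% interval -0.45 to 0.43, adjusted p = 0.991) and -0.24 (95% interval -0.68 to 0.21, adjusted p = 0.796). At 96 h all 4 members had lower means in 1.5 mM gels. *Dppa5a* ran from 27.9 to 34.5 CPM in 1.5 mM gels and from 37.0 to 49.3 CPM in 1.0 mM gels, without overlap, as did 7.35% of the 15861 genes tested in that direction. Its log2 fold change was -0.49 ± 0.112 (SE, 95% interval -0.73 to -0.24), with a p of 9.64e-04 and an adjusted p of 0.189 in edgeR. The adjusted p was 0.0103 with DESeq2, 0.00345 when replicate numbers were taken as blocks and 4.63e-05 with no filter on low counts, and between 0.184 and 0.585 in the 13 other settings, while the fold change stayed short of the DE threshold in all 16. The other members at 96 h had log2 fold changes of -0.18 (*Dppa4*, 95% interval -0.45 to 0.09), -0.45 (*Dppa2*, -1.003 to 0.11) and -0.62 (*Dppa3*, -1.58 to 0.34), with adjusted p values from 0.608 to 0.698. Between gels the percentage of all genes called DE by edgeR was 0 at both embedding times, with 6.9% of genes at an unadjusted p below 0.05 at 72 h and 9.95% at 96 h, and DESeq2 called 2 genes at 72 h and 10 at 96 h. With replicate numbers as blocks, edgeR called 16 genes at 72 h and 51 at 96 h. At 96 h edgeR called 2 genes without replicate 1 and 12 without replicate 3 of the 1.5 mM group, none of them a Dppa gene.

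**Figure D2:**
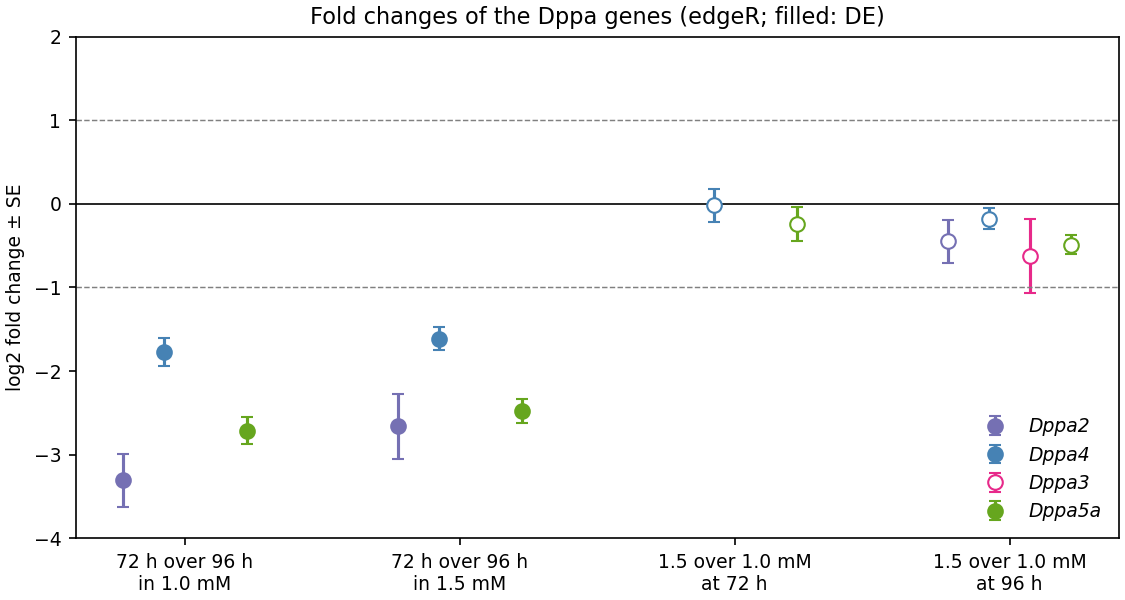
Log2 fold changes (vertical axis) with SE of the Dppa genes in the 4 comparisons of groups, 72 h over 96 h in each gel and 1.5 mM over 1.0 mM at each embedding time. Filled points are DE, open points are not, dashed lines mark a log2 fold change of 1 in either direction, and members without a point had too few reads to be tested. All points for embedding time lie at -1.61 or lower, and the points for gel concentration lie between -0.62 and -0.01.

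Over both gels together, the log2 fold change of 72 h over 96 h was -2.60 (*Dppa5a*, adjusted p = 4.94e-09), -1.69 (*Dppa4*, adjusted p = 1.45e-07), -2.99 (*Dppa2*, adjusted p = 1.12e-06) and -2.67 (*Dppa3*, adjusted p = 4.84e-04) in edgeR, beside 2.29% of 16388 genes called lower, *Dppa2* and *Dppa3* again having passed the filter through the libraries embedded at 96 h. The estimated changes were nearer to 0 in 1.5 mM than in 1.0 mM gels for all 4 members, by 0.17 (*Dppa4*) to 1.37 (*Dppa3*) on the log2 scale. The test of that difference gave adjusted p values of 0.953 or more, with 0% of all genes past the threshold in edgeR (0 genes with DESeq2) and 4.32% at an unadjusted p below 0.05, and the 95% interval for *Dppa5a* ran from -0.23 to 0.72.

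The genes around the members were examined because *Dppa3* sits in a chromosomal cluster with other pluripotency genes. Within 100 kb of *Dppa3*, 5 of 12 neighbouring genes were tested. *Gdf3*, a TGF-beta family ligand of early embryos, was lower after embedding at 72 h (log2 fold change -2.23 in 1.0 mM and -2.05 in 1.5 mM gels, adjusted p = 0.00845 and 0.00575). *Nanog*, a central factor of naive pluripotency, fell by 1.96 and 1.50 on the log2 scale (adjusted p = 1.34e-04 and 0.00525). The glucose transporter gene *Slc2a3* (0.88 and 0.80) and *Gm10420* and *Gm10224* (between -0.14 and -0.06) were not DE. Of the 15 neighbours of *Dppa5a*, 4 were tested, and *Ooep*, a KH-domain gene of oocytes 7931 bases away, was DE and lower with log2 fold changes of -1.84 and -2.59 (adjusted p = 0.0169 and 0.00429), a call that was lost in 1.0 mM gels without replicate 1 or replicate 2 of the group embedded at 96 h (0 called). *Gdf3* and *Ooep* also passed the filter only through the libraries embedded at 96 h. *Ddx43*, *Cgas* and *Mto1* had changes between -0.33 and -0.06 and were not DE. Around *Dppa2* and *Dppa4*, the only tested neighbour of each was the other. No annotated neighbour overlapped a member.

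**Figure D3:**
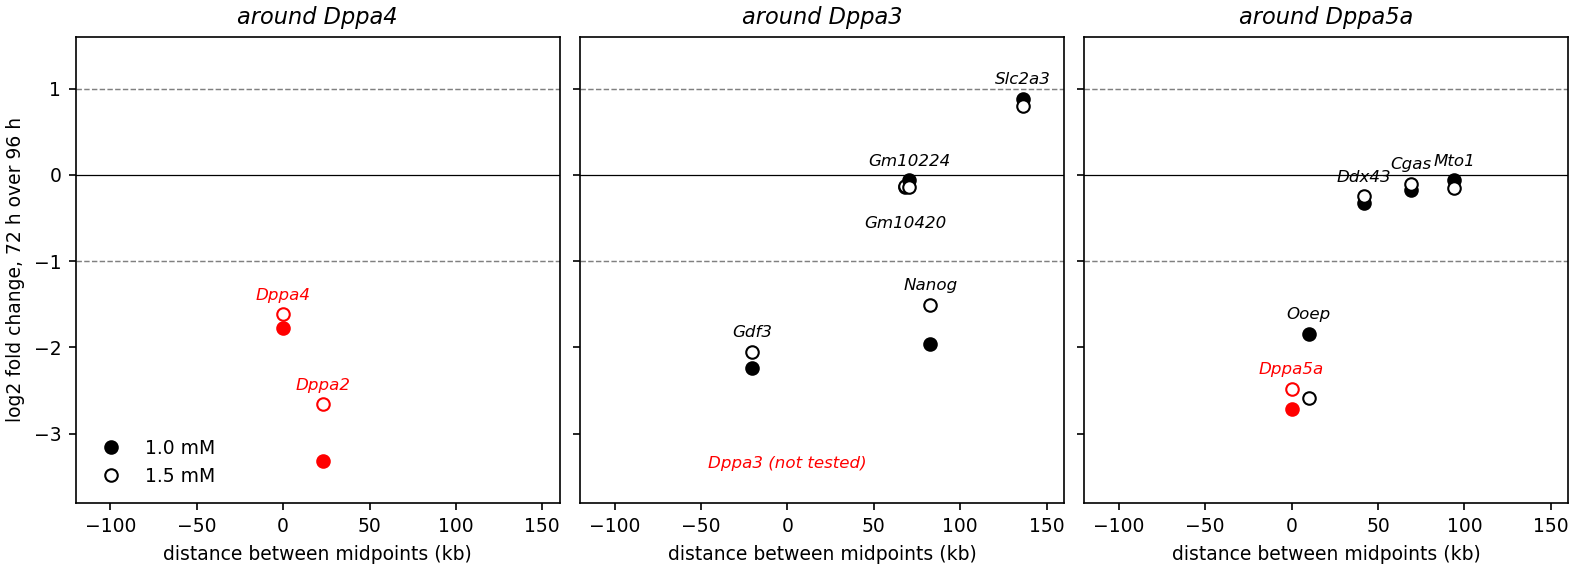
Log2 fold change of 72 h over 96 h (vertical axis) for the tested genes within 100 kb of *Dppa4*, *Dppa3* and *Dppa5a*, against the distance between gene midpoints in kb. Filled circles are 1.0 mM gels, open circles 1.5 mM gels, red marks the members and dashed lines a log2 fold change of 1 in either direction. *Gdf3*, *Nanog* and *Ooep* lie below -1 in both gels, and the remaining neighbours that are not members lie between -0.33 and 0.88.

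The genes whose log2 CPM over the 12 libraries followed *Dppa5a* most closely were *Zfp42* (Rex1, a naive stem cell marker, Pearson r = 0.990), *Utf1* (0.989), *Tdh* (0.987), *Tfap2c* (0.986) and *Minar2* (0.983) among 16384 genes. For *Dppa4* they were *Tdh* (0.990), *Zfp42* (0.983), *Tfap2c* (0.976), *Utf1* (0.975) and *Platr10* (0.972). These coefficients describe 12 points that are split mainly by embedding time, and within the 6 libraries of an embedding time they were lower. The 5 genes named for *Dppa5a* had r of 0.480 to 0.844 within the libraries embedded at 72 h and of 0.675 to 0.926 within those embedded at 96 h, and the 5 named for *Dppa4* had r of 0.130 (*Utf1*) to 0.709 and of 0.748 to 0.919. The 6 libraries of an embedding time come from both gels. At 96 h *Dppa5a*, *Zfp42*, *Tdh* and *Tfap2c* were lower in 1.5 mM than in 1.0 mM gels without overlap, as were 7.35% of genes. *Utf1* and *Minar2* overlapped between gels. The r within an embedding time thus can also hold a difference between gels. For *Dppa2*, the closest genes included *Lefty2* (0.976), *Angptl1*, *Tdh* and *Platr10* (0.973 for the last), and for *Dppa3* *Nsg2* (0.952), *Tgfbi*, *Inpp5d*, *Gm37245* and *Lepr* (0.927). In any library embedded at 72 h, *Lefty2* held at most 9 counts, *Angptl1* at most 3 and *Gm37245* at most 4. Their coefficients, like all those of *Dppa2* and *Dppa3*, thus rest on few reads at 72 h. *Tdh* had r = -0.07 with *Dppa2* within the libraries embedded at 72 h, and the genes named for *Dppa3* had r of 0.465 to 0.869 there. The most opposed genes were *Dusp11* (-0.978), *Prr11* and *Scg3* for *Dppa5a*, *Dusp11* (-0.973), *Scg3* and *Rybp* for *Dppa4*, *Bmp7* (-0.972), *Slc7a8* and *Kcnmb1* for *Dppa2*, and *Acer3* (-0.955), *Esyt1* and *Pilrb2* for *Dppa3*. Some of these coefficients were positive within an embedding time, at 72 h for *Scg3* (0.339 with *Dppa5a* and 0.439 with *Dppa4*) and *Slc7a8* (0.377) and at 96 h for *Prr11* (0.162). Among the members, *Dppa4* and *Dppa5a* had r = 0.988 over 12 libraries, with 0.398 within the libraries embedded at 72 h and 0.832 within those embedded at 96 h. *Dppa2* and *Dppa4*, whose products form a complex, had r = 0.978, with 0.520 and 0.404 within embedding times. The other 4 pairs of members had r of 0.860 to 0.956 over 12 libraries, but of -0.618 to -0.339 within the libraries embedded at 72 h and of 0.207 to 0.352 within those embedded at 96 h.

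Of 15 genes of naive pluripotency, 14 were tested. After embedding at 72 h, 8 were DE and lower and 1 was higher in 1.0 mM gels, and 8 were lower and 0 higher in 1.5 mM gels, with list medians of -1.65 and -1.30 beside -0.01 over all genes in both. Over all genes tested, 2.61% were DE and higher in 1.0 mM gels and 1.61% in 1.5 mM gels. *Nr0b1* (Dax1, a nuclear receptor of stem cells) fell by 3.97 and 3.67 on the log2 scale, from 11 to 30 counts at 96 h to at most 2 at 72 h, and was the 1 tested gene of the list that passed the filter only through the libraries embedded at 96 h. *Tdh* (a threonine dehydrogenase of stem cells) fell by 3.17 and 2.70, *Zfp42* by 2.50 and 2.26 and *Fgf4* (a growth factor of the epiblast) by 2.42 and 2.53. The fitted changes of *Dppa5a* lay between those of *Tdh* and *Zfp42* in both gels, and those of *Dppa4* were nearer to 0 than all 4. *Tbx3* was higher in 1.0 mM gels, at 1.49, and had a value of -0.08 in 1.5 mM gels, and it was not called without replicate 3 of the group embedded at 96 h in 1.0 mM gels (0 genes higher). *Klf2*, with log2 fold changes of -0.96 and -1.02, and *Klf4*, *Klf5*, *Tfcp2l1* and *Gbx2* were not DE in either gel. *Tcl1* held at most 14 counts and was not tested.

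Of 7 core pluripotency and Lin28 genes, 1 was DE in each gel. *Pou5f1* (Oct4) fell by 1.45 and 1.14 on the log2 scale, less than *Dppa5a*, and its levels were 15.3 ± 1.76 CPM (SD, n = 3) and 15.3 ± 3.44 after embedding at 72 h, against 41.5 ± 8.41 and 33.6 ± 5.05 after embedding at 96 h, for gels of 1.0 and 1.5 mM. *Sox2*, shared by pluripotent and neural cells, had log2 fold changes of -0.58 and -0.42 and was not DE. *Sall4*, *Lin28a*, *Lin28b*, *Zfp462* and *Trim71* had values between 0.04 and 0.42. The list median was 0.07 in 1.0 mM and 0.28 in 1.5 mM gels. Without the fold change threshold, edgeR called 2 genes lower and 2 higher in 1.0 mM gels. In 1.5 mM gels it called 2 lower and 3 higher. The list summed to 1062.5 to 1237.8 CPM at 72 h and 1015.3 to 1056.6 CPM at 96 h in 1.0 mM gels. For 1.5 mM gels the sums were 1033.3 to 1187.5 and 877 to 1000.5 CPM. They were higher at 72 h without overlap in both gels, while *Pou5f1* and *Sox2* were lower.

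**Figure D4:**
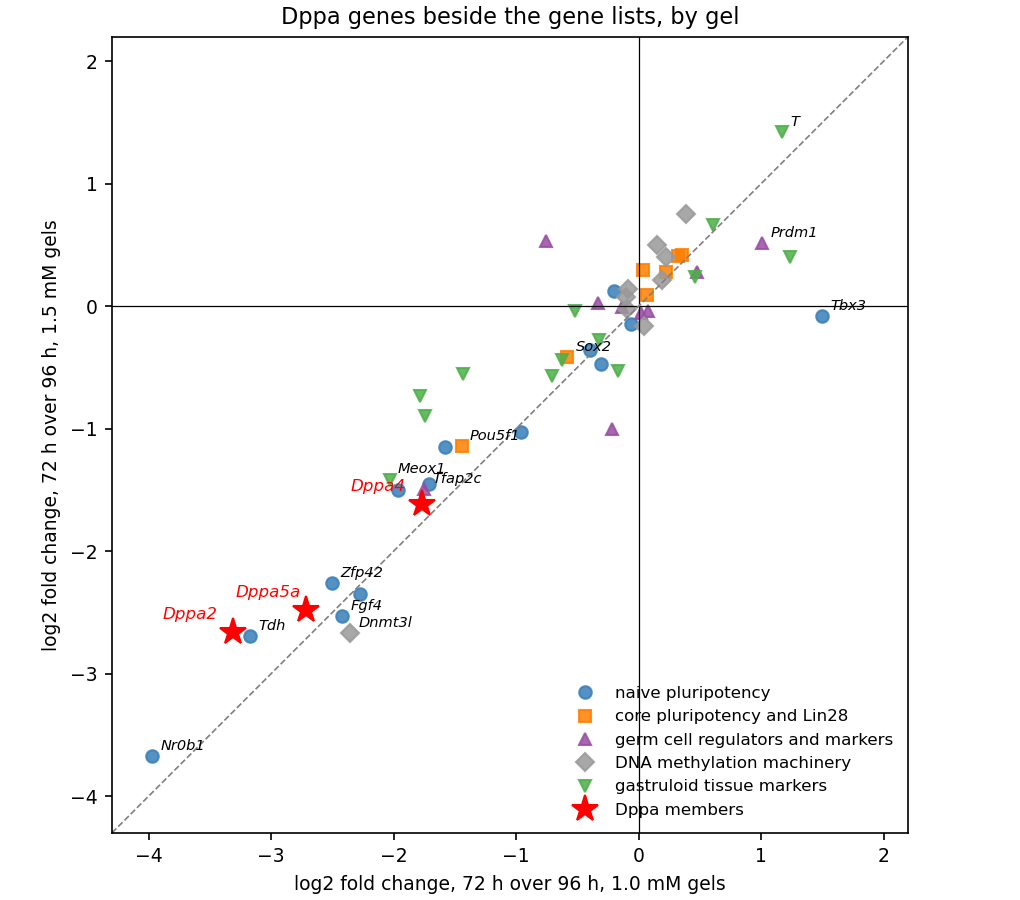
Log2 fold change of 72 h over 96 h in 1.0 mM gels (horizontal axis) and in 1.5 mM gels (vertical axis) for the Dppa genes tested (red stars) and the genes of 5 lists tested in both gels. The dashed line marks equal change. *Dppa2* and *Dppa5a* lie beside *Tdh*, *Zfp42* and *Fgf4*, *Dppa4* lies beside *Tfap2c*, and most genes of the other lists lie between -1 and 1 on both axes.

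The germ cell list was read for *Dppa3* and *Dppa5a*, which are also germ cell genes. Of 12 germ cell regulators and markers, 10 were tested in 1.0 mM gels (2 lower, 1 higher, median -0.17) and 9 in 1.5 mM gels (1 lower, 0 higher, median 0.00). *Tfap2c*, a transcription factor of germ cell specification, fell by 1.75 and 1.50, and *Prdm14*, tested in 1.0 mM gels only and through the libraries embedded at 96 h, fell by 2.89. *Prdm1* (Blimp1), also expressed in endoderm and mesoderm, rose in 1.0 mM gels, by 1.01 on the log2 scale, and had a value of 0.52 in 1.5 mM gels, and in 1.0 mM gels no gene of the list was called higher (0) with the replicate number as a block, or without replicate 3 of either group. *Nanos3*, *Dnd1*, *Ifitm1*, *Ifitm3*, *Kit*, *Ddx4* and *Sycp3* were not DE. *Dazl* (at most 14 counts) and *Tex101* (at most 2) were too low to test. The summed level of the list was 351 to 462 CPM after embedding at 72 h and 279 to 303 CPM after embedding at 96 h for 1.0 mM gels, and 318 to 346 and 258 to 312 CPM for 1.5 mM gels. *Ifitm1* (means of 242 and 173 CPM in 1.0 mM gels for 72 h and 96 h) and *Prdm1* (81.6 and 40.5 CPM) made up most of the difference between these sums, while *Tfap2c*, *Prdm14*, *Dazl* and *Nanos3* had lower means at 72 h in both gels.

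Of 9 genes of the DNA methylation machinery, on which *Dppa3* acts, 1 was DE in each gel. *Dnmt3l*, the cofactor of the de novo methyltransferases in germ cells and stem cells, fell by 2.36 and 2.67 on the log2 scale, having passed the filter through the libraries embedded at 96 h. *Dnmt1* (-0.09 and -0.02) and *Uhrf1* (-0.10 and 0.08) were not DE, nor were *Dnmt3a*, *Dnmt3b*, *Tet1*, *Tet2*, *Tet3* and *Tdg*. The list medians were 0.04 and 0.14. Without the fold change threshold, edgeR called 1 gene lower and 0 higher in 1.0 mM gels. In 1.5 mM gels it called 1 lower and 3 higher.

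Of 13 genes known to depend on *Dppa2* and *Dppa4*, 2 were tested in 1.0 mM gels and 1 in 1.5 mM gels. *Mael*, a germ-line gene of the piRNA pathway, fell in 1.0 mM gels, by 2.39 on the log2 scale, from 14 to 17 counts at 96 h to at most 6 at 72 h. It passed the filter only through the libraries embedded at 96 h, and of the fits that left out 1 library, it was called only without replicate 2 of the group embedded at 72 h (0 genes of the list lower without each other library). In 1.5 mM gels, where *Mael* was not tested, it held 3 to 7 counts at 72 h and 4 to 8 at 96 h. *Nkx2-5*, a cardiac transcription factor with a bivalent promoter in stem cells, rose by 2.53 and 1.30 on the log2 scale, and was not called in 1.5 mM gels without replicate 1 of the group embedded at 72 h or replicate 3 of that embedded at 96 h (0 genes higher). The zygotic activation genes *Zscan4a* to *Zscan4f*, *Duxf3*, *Zfp352*, *Tcstv1* and *Tcstv3* held at most 3 counts in any library. Of 5 KH-domain relatives of *Dppa5a*, *Ooep* alone was tested, while *Khdc3* held at most 11 counts and *Khdc1a*, *Khdc1b* and *Khdc1c* at most 4.

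The tissue of origin was checked with 14 markers of gastruloid tissues, of which 13 were expressed highly enough to be tested and *Msgn1*, of presomitic mesoderm, held at most 3 counts. Their summed level was 784 to 905 CPM after embedding at 72 h and 1099 to 1140 CPM after embedding at 96 h for 1.0 mM gels, and 772 to 929 and 920 to 1090 CPM for 1.5 mM gels. In 1.0 mM gels 4 were DE and lower, among them the somite genes *Meox1* (-2.03) and *Tcf15* (-1.74), and 2 were higher, *T* (Brachyury, 1.17) and *Pax6* (1.24). In 1.5 mM gels *Meox1* (-1.42) was lower and *T* (1.42) higher, and 2 markers were lower without replicate 2 or 3 of the group embedded at 72 h or replicate 1 of that embedded at 96 h. The tissue markers thus were lower in sum after embedding at 72 h, without overlap in 1.0 mM gels and with overlap in 1.5 mM gels. This sum joined markers that moved in opposite directions. In 1.0 mM gels *Meox1* (means of 89.6 and 366 CPM for 72 h and 96 h), *Tcf15* (38.0 and 127) and *Foxc1* (172 and 265) carried the decrease. *T* (251 and 111 CPM), *Kdr* (195 and 141), *Pax6* and *Foxa2* had higher means at 72 h in both gels. The part of the tissue markers in the change of the members was not tested. The abundance of the ribosomal-RNA-like gene *CT010467.1* differed between libraries, from 0.207% to 6.12% of counts, with the 2 highest values in 1.5 mM gels (4.21% and 6.12%). In 1.0 mM gels its share moved with embedding time without overlap, at 1.04%, 2.08% and 2.67% for 72 h and 0.207%, 0.672% and 0.540% for 96 h, and its part in the change of the members was not tested there. In 1.5 mM gels the shares overlapped, at 6.12%, 1.25% and 0.223% for 72 h and 1.52%, 4.21% and 0.842% for 96 h. Without the 2 highest libraries, a setting added after the data were seen, *Dppa4* and *Dppa5a* were DE and lower over both gels, beside 2.42% of 16668 genes.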

How the data were processed

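Bulk RNA-seq of 12 libraries in 4 groups of 3 was analysed from 2 deposited tables. Per the labels and the study's methods, poly-A RNA was made into stranded libraries and sequenced with paired reads of 75 bases. According to the submitters' processing notes, the authors trimmed reads with cutadapt 4.4 and aligned them with STAR 2.7.10b to mm10 with a customized Ensembl annotation. The authors deposited raw counts per gene, without normalization, which the methods take from STAR and the table's name from HTSeq, and the strand setting and treatment of reads with several matches are not given in the sources used here. The authors computed the deposited FPKM values with Cufflinks 2.2.1.3, with a correction for reads with several matches, and these values served for comparisons of level between genes. Another table holds the authors' log2 fold changes and p-values from DESeq2 and was not used.

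Counts were fitted in R 4.3.3 with edgeR 4.0.16 (TMM, filterByExpr by group at 10 counts per library and 15 in total, glmQLFit and glmQLFTest), with the 36 mitochondrial genes left out as in the study and p values adjusted over all genes tested. Each pair of groups was fitted alone, and additive and interaction models used all 12 libraries. The comparisons of gels use the same libraries as those of embedding times. Log2 CPM used a prior count of 2. The procedure was tested on simulated data. Total counts of 23011791 to 27609422 per library give few reads for *Dppa2* and *Dppa3*, whose values are limited by counting error.

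Genes named are the 4 members, other Dppa features, genes within 100 kb of a member, and those most alike or most opposed to each member. The last are the 5 highest and 3 lowest Pearson r among genes that passed the low-count filter over all 12 libraries. Up to 4 genes a list with the largest DE change in 1.0 mM gels are also named. Other members of the lists are named only to account for each list. A gene that this rule names for *Dppa2* is not reported here. The members and the 7 gene lists were chosen with earlier results of these data known. Replicates of the same number were checked for deviating together, with a cut of r above 0.1 in every pair. This held for embedding time in 1.5 mM gels (r = 0.182 to 0.353) and for gel concentration at 72 h (0.112 to 0.294). The lowest r fell below the cut for embedding time in 1.0 mM gels (0.0662 to 0.507) and gel concentration at 96 h (0.0988 to 0.483). These ranges overlapped the others, so the cut does not separate the comparisons clearly. The pairing comes from the numbers in the labels. Alternatives were DESeq2 1.42.0, limma 3.58.1 (voom, or trend on log2(FPKM + 1)), RLE normalization, other filters, mitochondrial genes kept, the replicate block, all 12 libraries in a single fit, no fold change threshold, and each library left out. Transcript sequences were read from GENCODE vM21 (GRCm38) with Python 3.11.15 and Biopython 1.88, and figures were drawn with matplotlib 3.10.9. Promoter and protein sequences of the members were not used here.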

Additional observations from a re-analysis of the deposited data

How the results depend on the processing

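With the replicate number as a block, no call of a member changed. *Dppa4* and *Dppa5a* were DE and lower in both gels, beside 1.83% of all genes in the 1.0 mM gel and 1.77% in the 1.5 mM gel. The exact permutation test with labels exchanged within replicate numbers gave p = 0.0312 for each member, the smallest its 64 assignments allow. The non-overlap of the libraries fixed this value too. The paired edgeR fit brought the adjusted p of *Dppa5a* between gels at 96 h to 0.00345. Replicates of the same number had r of 0.483, 0.224 and 0.0988 there, the last just below the cut of 0.1 used for pairing. Leaving out 1 library at a time left *Dppa4* and *Dppa5a* DE and lower in each gel, beside 1.27% to 1.82% of all genes in the 1.0 mM gel and 1.11% to 2.2% in the 1.5 mM gel, and no member DE between gels. *Dppa2* and *Dppa3* passed the filter only through the libraries embedded at 96 h, so that their calls say nothing of stability. With limma-trend on log2(FPKM + 1), 2 members were DE and lower over both gels, the FPKM of *Dppa2* (log2 fold change -0.65) and *Dppa3* (log2 fold change -0.60) being near or below the added 1, and 5 and 3 naive pluripotency genes were lower in gels of 1.0 and 1.5 mM against 8 and 8. The same scale gave differences between members of 0.58 (*Dppa2* minus *Dppa4*), 1.80 (*Dppa2* minus *Dppa5a*), -0.64 (*Dppa4* minus *Dppa3*) and 1.85 (*Dppa3* minus *Dppa5a*), against -0.98, -0.07, 0.38 and 0.53 in log2 CPM. *Dppa2* minus *Dppa5a* was 0.50 on the scale of log2(FPKM + 0.1) and ran from -0.24 to 0.068 with 1 library left out. *Dppa4* between gels at 72 h was 0.12 without replicate 2 of the 1.0 mM group and 0.04 without replicate 2 of the 1.5 mM group, against -0.01, and ran from -0.089 to 0.12 over all 6 such fits. *Dppa4* minus *Dppa5a* ran from 0.83 to 0.99 with 1 library left out. The setting without both libraries with the most counts at *CT010467.1* was chosen after the data were seen and changed no call of a member. Over all genes, limma-trend on log2(FPKM + 1) called 63 and 54 genes DE with embedding time in the gels of 1.0 and 1.5 mM, against 678 and 498, and 123 against 763 over both gels. A filter of 1 CPM in 3 libraries left 233 against 376 genes lower over both gels. Without replicate 2 or 3 of the groups embedded at 96 h, 258 and 224 genes were higher in the 1.0 mM gel, against 411, and 149 and 115 in the 1.5 mM gel, against 252. Between gels, the fits without a filter on low counts called 56 genes at 72 h and 65 at 96 h, those with the block 16 and 51, and those on FPKM 2 and 2, against 0 and 0. For the interaction these fits called 112, 4 and 4 genes against 0. The cause of these shifts was not tested.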
